A study of Mus musculus with 41 samples.

Results

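Post-ischemia macrophages (PIM) carried the active mark H3K18la and the repressive mark H3K27me3 mostly in different places, and the regions where their peaks met are described here. Members were chosen by overlap: a peak of the H3K18la list and a peak of the H3K27me3 list that shared at least 1 bp were joined into a region with both marks, and every other peak was an H3K18la-only or H3K27me3-only region. Of 45357 regions, 1919 (4.23%) held both marks, 29606 held H3K18la only and 13832 held H3K27me3 only.

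PIM were macrophages sorted as CD45+, CD11b+, F4/80+ and CD64+ cells from the calf muscle of young adult female C57BL/6 mice (substrain J per the study's methods) on the second day after hind-limb ischemia, a surgical block of the femoral artery that starves the muscle of blood and is followed by repair. Nuclei were profiled by CUT&Tag, in which an antibody guides a transposase to tag DNA next to a histone modification. Each of the 2 marks had 2 samples, and the authors combined them into 1 peak list before deposit, as they did for PIM H3K4me3. PIM H3K27ac had 1 sample. The treatment label of the PIM samples reads control and no PIM list from uninjured muscle was analysed here, so no value below compares ischemia with its absence. The other macrophages of the series, bone marrow-derived macrophages (BMDM), were differentiated in culture, and each BMDM list rests on 1 sample.

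Lactylation of lysine 18 of histone H3 (H3K18la) adds a group derived from lactate, the end product of glycolysis, and is found at active promoters and enhancers. H3K27me3 is laid down by Polycomb repressive complex 2 (PRC2), mostly at CpG-rich promoters of developmental genes that are silent in the cell, and H3K4me3 is the mark of promoters that are active or poised. A promoter with H3K4me3 and H3K27me3 together is called bivalent, a state best known from embryonic stem cells. Lysine 27 of H3 cannot hold methyl and acetyl groups at the same time, whereas lysine 18 is another residue of the same tail. A peak list from many cells does not show whether 2 overlapping marks sat on the same nucleosome, on the 2 alleles of a locus or in different cells, and these cannot be told apart in these data.

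The label was checked against the genes of the sort. All 4 genes that encode the sorted surface proteins, Ptprc (CD45), Itgam (CD11b), Adgre1 (F4/80) and Fcgr1 (CD64), had an H3K18la peak and no H3K27me3 peak at the promoter. All 15 macrophage identity genes had promoter H3K18la. Of the markers of other cells the tissue could contribute, H3K18la lay at 0 of 10 promoters of fibro-adipogenic cells, 1 of 15 of muscle (Mef2c, also used by myeloid cells), 2 of 10 of endothelium, 2 of 14 of lymphocytes and 7 of 12 of neutrophils and dendritic cells. Over all protein-coding genes the share with promoter H3K18la was 37.8%, so only the last of these lists was above it. The neutrophil and dendritic cell promoters with H3K18la included Ly6g, S100a8, Csf3r and Mpo, while S100a9, Elane and Siglech had neither mark. What part other cells had in the regions with both marks was not tested.

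The sequence at these promoters shows how alike the DNA under both marks and under a single mark was. The 250 bases before the start site are given for 3 promoters that lay wholly under both marks, 2 wholly under H3K18la alone and 1 wholly under H3K27me3 alone, with every CpG dinucleotide in capitals, because PRC2 favours CpG-rich DNA. They are RefSeq sequences of build GRCm38.p6, the assembly of mm10, before the start site listed first for the gene. For Igf1 and Id3 that start lies 2846 and 325 bp downstream of the GENCODE start used elsewhere in the text and in the plot of peaks around start sites. Igf1 (insulin-like growth factor 1, a growth factor of muscle repair; chr10:87860861-87861110, plus strand), Cxcl1 (a chemokine that attracts neutrophils; chr5:90890995-90891244, plus strand) and Id3 (an inhibitor of helix-loop-helix transcription factors; chr4:136143572-136143821, plus strand) lay under both marks. Fcgr1 (the Fc receptor CD64 of the sort; chr3:96293970-96294219, minus strand) and Tnf (the inflammatory cytokine TNF; chr17:35202008-35202257, minus strand) lay under H3K18la. Pax7 (the transcription factor of muscle stem cells; chr4:139832969-139833218, minus strand) lay under H3K27me3.
Igf1: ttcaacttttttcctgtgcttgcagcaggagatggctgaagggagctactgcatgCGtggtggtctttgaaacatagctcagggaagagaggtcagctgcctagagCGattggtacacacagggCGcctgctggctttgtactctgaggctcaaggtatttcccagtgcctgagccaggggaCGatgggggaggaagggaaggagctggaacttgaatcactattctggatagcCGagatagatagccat
Cxcl1: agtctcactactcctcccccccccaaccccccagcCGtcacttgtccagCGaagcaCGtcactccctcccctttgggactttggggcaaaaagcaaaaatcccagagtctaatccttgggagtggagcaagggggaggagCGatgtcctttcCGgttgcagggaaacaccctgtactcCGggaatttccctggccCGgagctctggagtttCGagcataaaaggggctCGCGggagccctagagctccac
Id3: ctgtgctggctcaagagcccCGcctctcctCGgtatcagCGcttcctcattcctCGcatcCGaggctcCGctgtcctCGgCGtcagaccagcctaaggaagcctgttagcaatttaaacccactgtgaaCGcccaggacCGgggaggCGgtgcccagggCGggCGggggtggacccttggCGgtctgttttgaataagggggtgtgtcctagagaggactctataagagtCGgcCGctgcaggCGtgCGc
Fcgr1: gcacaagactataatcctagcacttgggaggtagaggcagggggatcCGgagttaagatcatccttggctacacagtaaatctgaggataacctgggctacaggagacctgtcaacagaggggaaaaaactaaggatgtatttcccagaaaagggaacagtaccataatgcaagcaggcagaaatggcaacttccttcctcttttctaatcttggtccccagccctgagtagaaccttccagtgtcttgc
Tnf: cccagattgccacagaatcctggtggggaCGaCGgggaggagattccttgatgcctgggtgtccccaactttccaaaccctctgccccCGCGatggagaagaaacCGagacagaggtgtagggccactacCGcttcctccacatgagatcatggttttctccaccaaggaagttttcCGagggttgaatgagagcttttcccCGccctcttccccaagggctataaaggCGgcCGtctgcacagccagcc
Pax7: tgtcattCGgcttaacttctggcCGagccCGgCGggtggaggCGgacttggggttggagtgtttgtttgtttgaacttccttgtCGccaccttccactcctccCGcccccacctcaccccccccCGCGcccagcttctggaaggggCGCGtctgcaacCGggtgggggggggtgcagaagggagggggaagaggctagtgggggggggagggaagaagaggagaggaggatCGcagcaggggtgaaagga

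These windows held 5 (Igf1), 10 (Cxcl1) and 18 (Id3) CpGs under both marks, 1 (Fcgr1) and 10 (Tnf) under H3K18la and 13 (Pax7) under H3K27me3. Over all 26794 RefSeq promoters matched to chromosomes 1 to 19 and X, the median was 6 CpGs. The 267 promoter windows wholly under both marks had a median of 11 CpGs (95% interval 10 to 12), the 4391 under H3K18la alone 12 (11 to 12) and the 3922 under H3K27me3 alone 10 (10 to 11), so the 3 classes overlapped closely and stood apart from the 16799 windows under neither mark, with a median of 3. The letters GAGGAA, the core bound by the macrophage factor PU.1 and other ETS factors, were searched on both strands. They occurred in 25.1% of the windows under both marks (20.3 to 30.6), 27.3% of those under H3K18la alone, 22.4% of those under H3K27me3 alone and 23.3% of all promoter windows. A match describes the letters only.

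H3K18la and H3K27me3 shared 4.04 Mb of DNA, which was 5.86% of the 68.9 Mb under H3K18la and 3.94% of the 102.6 Mb under H3K27me3. Overlap involved 7.67% of the H3K18la peaks (2460 of 32066; 95% Wilson interval 7.39 to 7.97) and 12.4% of the H3K27me3 peaks (1966 of 15798; 11.9 to 13.0). The shared bases were more than random placement of the 2 sets over the genome would give, by 0.59 on the log2 scale. Fold enrichment of this kind has no error here, since each mark had a single list. Random placement also ignores that both marks gather at promoters. These made up 30.6% of bases under H3K18la alone, 29.1% under H3K27me3 alone and 10.9% of the genome. How much of the enrichment comes from such shared preferences was not tested. Among the 5000 peaks of largest total signal in each list, only 3.14% of the H3K18la and 2.98% of the H3K27me3 peaks overlapped, in 141 regions, and the enrichment was 0.068 (log2).

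Most overlaps were deep. The 2507 overlapping pairs of peaks shared a median of 1358 bp (95% interval 1325 to 1394), with quartiles of 984 and 1925 bp. Among the 5000 strongest peaks of each list the median was 3339 bp (2843 to 3764). Only 65 pairs (2.59%) shared fewer than 200 bp, whereas 1853 pairs (73.9%) shared 1000 bp or more. In 1828 pairs (72.9%) at least 90% of the narrower peak was shared. Brief contacts at the edges were therefore a small part of the set. The shallowest pairs shared 1, 3, 3, 7 and 9 bp, and their nearest coding start sites were those of Abcg3, Chrna1, Kntc1, Prok2 and Ube2g2. Just outside the rule, the closest H3K18la peaks stopped 2, 8, 14, 15 and 15 bp short of an H3K27me3 peak.

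In most pairs the H3K18la peak was nested inside a wider H3K27me3 domain. That was the position of 1477 of the 2507 pairs (58.9%; 56.98 to 60.8), in which the H3K18la peak took up a median of 15.5% of the H3K27me3 peak. The reverse, an H3K27me3 peak inside an H3K18la peak, was found in 131 pairs (5.23%; 4.42 to 6.17). The other 899 pairs (35.9%; 34.0 to 37.8) were staggered, each peak reaching past the other, and shared a median of 1208 bp. Among the 5000 strongest peaks of each list H3K18la was inside in 65 of 165 pairs (39.4%; 32.3 to 47.0) and 83 were staggered (50.3%; 42.8 to 57.8), so nesting was not the majority there. Abutting peaks were few. Only 105 H3K18la peaks (0.355% of those with no shared base) lay within 200 bp of an H3K27me3 peak without touching it, and the median distance of H3K18la peaks without shared bases to the nearest H3K27me3 peak was 63.9 kb (62.7 to 65.1).

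**Figure D1:**
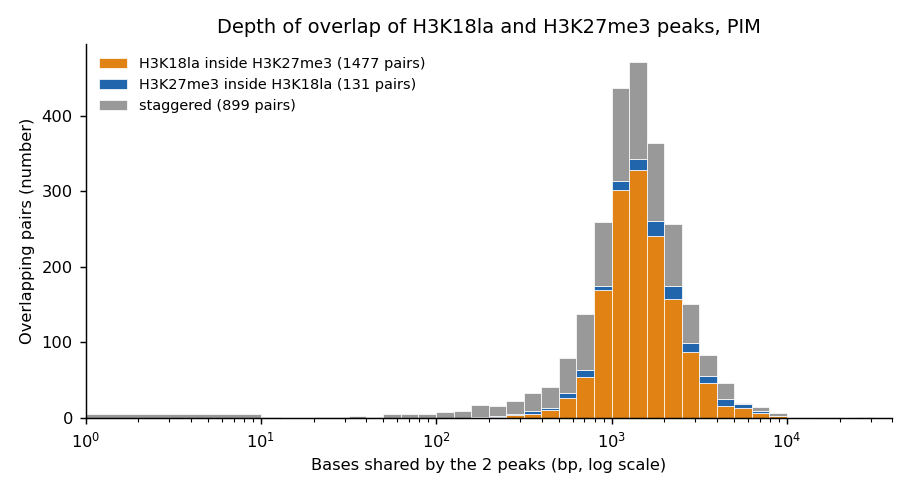
Number of overlapping pairs of H3K18la and H3K27me3 peaks in PIM (y axis) by the number of bases they share (x axis, log scale), with colours for the position of the 2 peaks. The quartiles lie at 984 and 1925 bp. In total H3K18la inside H3K27me3 (1477 pairs) outnumbers staggered pairs (899) and the reverse nesting (131), while staggered pairs make up most of the shallow overlaps.

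Within the H3K27me3 domain, nested H3K18la peaks were more often central than at the rim. With the domain divided into 5 equal parts, the midpoints of the 1477 nested H3K18la peaks fell in the middle part in 405 pairs (27.4%) and in the outer parts in 206 (13.9%) and 188 (12.7%). A midpoint of a wide peak cannot lie at the rim of a narrow domain, which limits this comparison. The strongest stretch of the H3K27me3 peak lay under the nested H3K18la peak in 747 pairs (50.6%; 48.0 to 53.1), while the H3K18la peak covered on average 22.3% of the domain. In the 899 staggered pairs, 43.2% of H3K27me3 maxima (40.0 to 46.4) lay in the shared bases, which made up on average 33.3% of the H3K27me3 peak. The H3K27me3 maximum thus fell under H3K18la more often than the share of covered bases in both arrangements. How far the central position of nested peaks accounts for this was not tested.

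A region with both marks usually consisted of 1 peak of each mark (1536 of 1919, 80.04%). Several H3K18la peaks lay along 1 H3K27me3 domain in 348 regions (18.1%). The largest number of H3K18la peaks in any region with both marks was 13. The opposite, 1 H3K18la peak with several H3K27me3 peaks, was found in 15 regions, and 20 had several of each. Several H3K18la peaks with 1 H3K27me3 peak were thus the main departure from a simple pair.

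The signal of overlapping peaks differed by mark. Signal is the fragment coverage the authors deposited for each peak and was compared within a list only. H3K27me3 peaks that met H3K18la had a median maximum signal of 51 (95% interval 49 to 54; n = 1966), against 33 (33 to 34; n = 13832) for the rest. H3K18la peaks that met H3K27me3 had a median maximum of 59 (57 to 62; n = 2460), against 65 (65 to 66; n = 29606). The H3K27me3 peaks in the overlap were therefore taller than their list, and the H3K18la peaks slightly lower. H3K27me3 peaks in the overlap were also wider, with a median of 5384 bp (5135 to 5673) against 4169.5 bp (4104 to 4231), and a wider peak has more room for an overlap. For H3K18la the medians of 1574.5 bp (1542 to 1629) and 1617 bp (1607 to 1629) had overlapping intervals. With each list divided into 5 equal groups by total signal, the share of H3K27me3 peaks that met H3K18la was 8.39% in the lowest group (7.47 to 9.40) and 18.2% in the highest (16.9 to 19.5). For H3K18la peaks it was 8.72% in the lowest group (8.05 to 9.43) and 6.74% in the highest (6.15 to 7.38).

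Regions with both marks lay at promoters more often than regions with either mark alone. A promoter was the 2000 bp on either side of an annotated transcription start site (TSS). Of the 1919 regions with both marks, 58.1% reached a promoter (55.9 to 60.3), compared with 39.0% of H3K18la-only regions (38.5 to 39.6) and 48.4% of H3K27me3-only regions (47.5 to 49.2). The difference was 19.1 percentage points from H3K18la-only regions (95% Newcombe interval 16.8 to 21.3) and 9.74 points from H3K27me3-only regions (7.36 to 12.1). Regions with both marks were also wider, with a median of 6450 bp against 1617 and 4169.5 bp, and a wider region reaches more start sites. Counted by bases, which removes that advantage, 35.5% of the shared bases were promoter, against 30.6% of bases under H3K18la alone, 29.1% under H3K27me3 alone and 10.9% of the genome. Among the 5000 strongest peaks of each list the first difference was 30.3 points and the second turned around, to -6.59 points.

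CpG islands, stretches of CpG-rich DNA that mark many promoters, showed the same order. They were in 37.2% of regions with both marks (35.0 to 39.3), 19.1% of H3K18la-only regions and 29.9% of H3K27me3-only regions. By bases the shares were 4.19%, 3.02% and 3.31%, against 0.407% of the genome. GC content was 49.8% in the shared bases and 47.4% under either mark alone, with 41.8% for the genome. The sequence under both marks was thus close to that under a single mark, and all 3 were richer in GC and CpG than the genome.

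The other 2 PIM marks separated the classes more clearly. H3K4me3 peaks were in 66.8% of regions with both marks (64.6 to 68.8), 52.4% of H3K18la-only regions (51.9 to 53.0) and 17.9% of H3K27me3-only regions (17.3 to 18.6). H3K27ac peaks were in 50.3% (48.1 to 52.6), 52.7% (52.1 to 53.3) and 2.85% (2.58 to 3.14). The overlap with H3K18la thus went with H3K4me3 and H3K27ac, and most H3K27me3-only regions (81.6%) held neither. By bases, H3K4me3 covered 50.5% of the shared bases, 46.3% of those under H3K18la alone and 8.54% of those under H3K27me3 alone. H3K27ac, whose peaks were narrow, covered 21.8%, 28.8% and 0.420%. Neither active mark was found in 510 regions with both marks (26.6%).

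**Figure D2:**
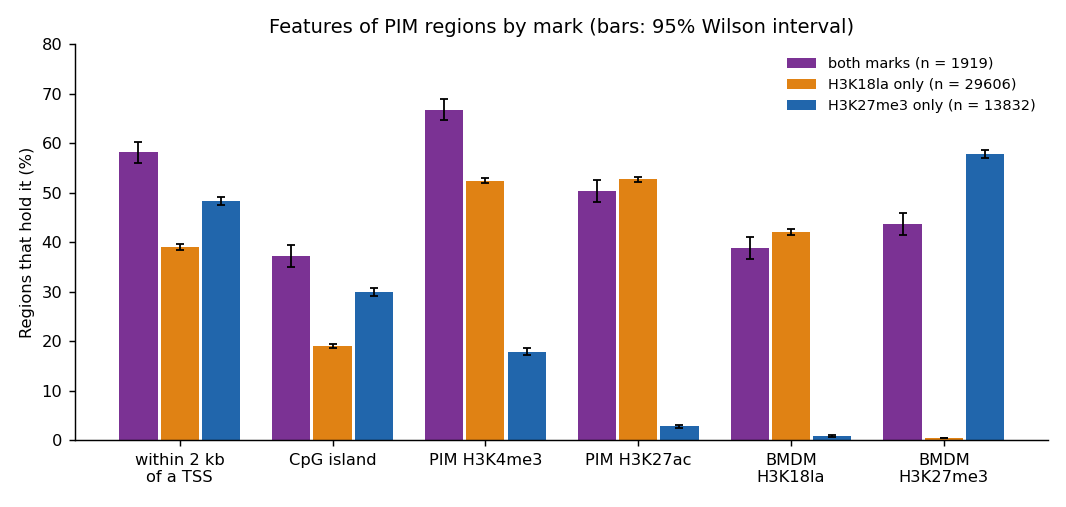
Share of PIM regions (y axis, percent) that hold a promoter window, a CpG island, a PIM H3K4me3 or H3K27ac peak, or a BMDM peak of H3K18la or H3K27me3 (x axis), for regions with both marks, H3K18la only and H3K27me3 only; error bars are 95% Wilson intervals. Regions with both marks are at 66.8% for H3K4me3 and 43.6% for BMDM H3K27me3, where H3K18la-only regions are at 52.4% and 0.469%. H3K27me3-only regions are at 17.9% and 57.8%.

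The 10 longest uninterrupted stretches under both marks on chromosomes 1 to 17, 19 and X ran from 7727 to 28156 bp. The longest pair lay in Sfi1, a centrosome gene, at chr11:3152277-3180432 (28156 bp) and chr11:3130717-3148907 (18191 bp; mm10), over exons and promoters. They overlapped a peak in 21 and 23 of the 24 lists of the series, active and repressive marks alike, so they were not particular to PIM or to these marks. Mroh2a (9402 bp shared) and Gpr137b (a lysosomal membrane protein, 9046 bp) were next, at promoters. The other 8 stretches overlapped a peak in 6 (Tekt3) to 17 (Gpr137b) of the 24 lists, with Mroh2a at 16, Sema4b at 15, Abca1 at 11, Chchd6 at 10 and Airn at 7. The stretch in Abca1, the cholesterol exporter of macrophages, was 8577 bp long at chr4:53119494-53128070 and lay in the gene body over exons, 36113 bp from a coding start site. A stretch of 7904 bp at chr11:51915139-51923042, in 15 of the lists, overlapped no gene. The stretch at chr17:12787850-12796806 (8957 bp) lay in Airn, the antisense RNA of the imprinted Igf2r locus. All 10 stretches overlapped a PIM H3K27ac peak, and 8 overlapped an H3K4me3 peak, the exceptions being the stretches in Airn and Tekt3. Over all 1919 regions with both marks these shares were 50.3% and 66.8%, and a long stretch has more room for a peak.

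The widest regions with a single mark were of another kind. The 5 widest H3K18la-only regions measured 22153 to 29575 bp and included Zmiz1 (29575 bp), a transcriptional coactivator, and Slc37a2 (23149 bp), a sugar-phosphate transporter of macrophages. All 5 also held H3K27ac. The 5 widest H3K27me3-only regions measured 82172 to 150892 bp and included the Hoxc cluster, with 9 Hox genes in 129413 bp, and a domain over Egflam and Lifr (150892 bp). None of the 5 held H3K27ac, and all held an H3K4me3 peak somewhere along their length.

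At the level of genes, a protein-coding gene was counted as having both marks when 1 of its promoter windows held a peak of each. Of 21755 protein-coding genes, 4.99% (1085) had both marks in 1 window, 37.8% (8233) had H3K18la and 26.4% (5753) had H3K27me3. The count with both marks was 718 where 50% of the narrower of peak and window had to be shared and 76 among the 5000 strongest peaks of each list. Another 334 genes had each mark at a different start site, 6814 had H3K18la only, 4334 H3K27me3 only and 9188 neither. H3K27me3 was less frequent at genes with H3K18la (17.2%; 16.4 to 18.1) than at genes without it (32.1%; 31.3 to 32.8). The difference was seen at CpG island genes: with an island, 17.6% of the genes with H3K18la (16.7 to 18.5) and 49.9% of those without (48.7 to 51.2) had H3K27me3, and without an island the shares were 15.8% (14.1 to 17.6) and 16.2% (15.4 to 17.1). The marks thus avoided each other at genes with an island, while at genes without one the intervals overlapped.

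In 780 of the 1085 genes (71.9%) the 2 peaks that met in the window shared bases, and in 448 (41.3%) H3K18la was nested in H3K27me3. In the other 305 genes (28.1%) both peaks lay in the 4-kb window without touching. The start site itself lay in the shared bases in 301 genes (27.7%). H3K4me3 was at 1002 of the promoters with both marks (92.4%; 90.6 to 93.8), compared with 96.6% of H3K18la-only and 42.9% of H3K27me3-only promoters. H3K27ac was at 840 (77.4%; 74.8 to 79.8), compared with 93.6% and 10.6%. Promoters with both marks were therefore closer to H3K18la-only than to H3K27me3-only promoters in their active marks.

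Around the start site the 2 marks of these 1085 genes had different profiles. H3K27me3 covered most genes 2000 bp upstream of the start (68.4%) and fewer at the start (61.3%) and 2000 bp downstream (57.8%). H3K27me3-only genes had the opposite slope, with 73.0% upstream and 81.7% downstream. H3K18la covered 35.1% of the genes with both marks 1000 bp upstream and 44.8% 1000 bp downstream, a slope also seen at H3K18la-only genes (39.2% and 54.0%). Nearer the start the H3K18la slope at genes with both marks was the reverse, with 53.7% at 500 bp upstream and 46.1% at 500 bp downstream. Its maximum was 56.6%, at 200 bp upstream. H3K27me3 was thus higher upstream at genes with both marks, but at 1000 bp the values were close (63.4% upstream and 60.6% downstream). The points at 2000 bp are the edges of the window that defined the classes, which limits this comparison. For a gene with several start sites the most upstream one that met the class was used.

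**Figure D3:**
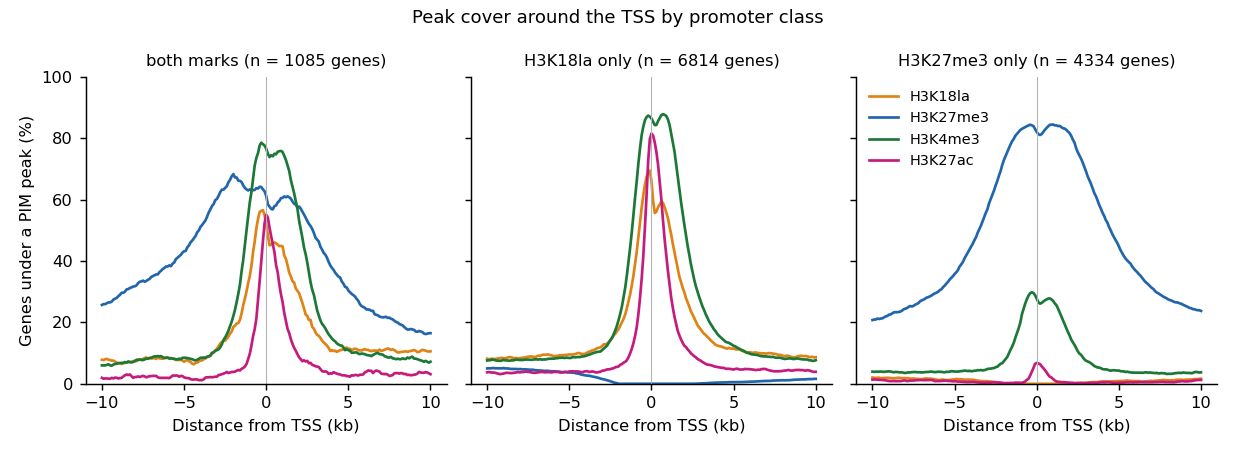
Share of genes under a PIM peak (y axis, percent) by distance from the TSS (x axis, kb) for genes with both marks, H3K18la only and H3K27me3 only, with a line per mark. At genes with both marks H3K27me3 is highest upstream of the start (68.4% at -2000 bp) while H3K18la, H3K4me3 and H3K27ac are highest near it. The absence of the other mark within 2 kb in the right-hand panels is set by the definition of the classes.

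The 10 genes with both marks whose weaker peak ranked highest by total signal fell into 2 kinds. Gm10800, Gm21738, Gm10717 and Gm10718 are predicted genes under extreme coverage, and the H3K18la maximum at Gm10800 was 56125 where the median of the list was 65. Of all peaks, 5 in each list overlapped a peak in every one of the 24 lists. The remaining 6 had H3K18la maxima of 264 to 705. Flrt2, a cell adhesion protein, had an H3K18la peak of 7517 bp wholly inside an H3K27me3 peak of 30788 bp, at the 98.4th and 98.7th percentiles of their lists. Srxn1 (an antioxidant enzyme) and Lpcat2 (an enzyme of platelet-activating factor synthesis in macrophages) had staggered peaks that shared 2276 and 4662 bp away from the start site. Both had H3K18la and no H3K27me3 in BMDM. Sfi1, Igf2r and Oacyl completed the list.

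Among 313 genes of 19 functional lists, 22 had both marks in 1 window (the noncoding Airn among them), all 22 with H3K4me3 and 18 with H3K27ac. In 13 of them the H3K18la peak was inside the H3K27me3 peak, in 6 the peaks were staggered, and in 2 (Runx3 and Batf3) they lay apart within the window. Pparg was the single gene with the reverse nesting. The shares of each list are read below against those of all coding genes. These were 4.99% for both marks, 37.8% for H3K18la and 26.4% for H3K27me3. A gene with both marks must have H3K18la, so a list rich in H3K18la has more room for both. Of the 8233 coding genes with H3K18la, 1085 had both marks in 1 window.

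Macrophage identity genes mostly had H3K18la alone, at 13 of 15 promoters. The other 2 (13.3%, against 4.99% of all coding genes) had both marks. All 15 had H3K18la, and the 13.3% was near the share among coding genes with H3K18la (1085 of 8233). Mertk, a receptor for the uptake of dying cells, was one of them, with a narrow H3K18la peak of 726 bp inside an H3K27me3 peak of 8248 bp. By contrast Csf1r, the receptor for the macrophage growth factor CSF1, and Spi1, which encodes PU.1, carried H3K18la peaks of 7015 and 12171 bp with no H3K27me3 peak at the promoter, both at the 99.0th percentile of total signal.

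Repair genes had both marks at 4 of 20 promoters (20%), Igf1, Vegfa, Thbs1 and Pparg. Igf1 was the deepest, with 5330 bp shared by an H3K18la peak at the 89.9th percentile and an H3K27me3 peak of 18584 bp at the 94.6th (chr10:87856426-87861755). Vegfa, the main angiogenic factor induced by low oxygen, had a weak H3K18la peak of 805 bp, at the 6.50th percentile, inside an H3K27me3 peak of 12300 bp at the 93.2nd. Thbs1 (thrombospondin, an inhibitor of angiogenesis) had the opposite balance, with an H3K18la peak at the 90.5th percentile and an H3K27me3 peak at the 41.5th. Pparg, a nuclear receptor of lipid handling, had an H3K27me3 peak of 962 bp inside an H3K18la peak of 975 bp. Of the other 16 repair genes, 13 (Mrc1, Tgfb1 and Il10 among them) had H3K18la only and 3 (Retnla, Chil3 and Gdf3) had neither mark.

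Inflammatory mediators had both marks at 2 of 20 promoters (10%), and 18 of the 20 had H3K18la. At Cxcl1 an H3K18la peak of 1416 bp lay inside an H3K27me3 peak of 2353 bp and over the start site (chr5:90890244-90891659), and the neighbouring H3K18la peaks on both sides had no H3K27me3. Ptgs2, the inducible cyclooxygenase, had peaks of 1453 and 1568 bp that shared 1331 bp over the start. In both genes the H3K27me3 peak was in the lower part of its list, at the 30.1st and 24.1st percentiles. Tnf, Il1b, Il6 and 13 others had H3K18la only. Nos2, the inducible nitric oxide synthase, was the single member with H3K27me3 only, in a peak of 11983 bp.

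Of the 12 interferon and MHC class II genes, 3 had both marks (25.0%). H2-Ab1, an MHC class II chain, had staggered peaks of 2675 and 5567 bp sharing 1329 bp over its start. Ciita, the transactivator of MHC class II, had an H3K18la peak of 1249 bp inside an H3K27me3 peak of 3659 bp. Isg15, an interferon-induced ubiquitin-like protein, shared 969 bp upstream of its start, with an H3K18la peak at the 5.08th percentile. Cd74 and H2-Eb1 had H3K18la only, and H2-Aa, Ifit1 and Ifit2 were among those with neither mark. The 2 MHC class II genes with both marks also had H3K27me3 in BMDM, and Isg15 had neither mark there.

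Of the genes of tissue-resident macrophages, Id3 and Runx3 had both marks (2 of 18, 11.1%). Id3 had a 721-bp H3K18la peak over its start site, at the 35.3rd percentile, within an H3K27me3 domain of 18838 bp at the 94.6th. At Runx3 the peaks lay 881 bp apart. Sall1 (a factor of microglia), Gata6 (a factor of peritoneal macrophages) and Car4 (a gene of alveolar macrophages) had H3K27me3 only. Genes of hypoxia and glycolysis, the source of lactate, had H3K18la at 15 of 17 promoters (88.2%, against 37.8% of all coding genes). Both marks were at 1 of the 17 (5.88%, near the 4.99% of all coding genes), Egln3, a prolyl hydroxylase that marks HIF for breakdown. Ldha, Slc2a1 and Hk2 had H3K18la only, and Adm (adrenomedullin) had H3K27me3 only.

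Genes of other lineages differed by list. Both marks were at 1 of 10 endothelial (10%), 1 of 12 neutrophil and dendritic cell (8.33%) and 1 of 14 lymphocyte genes (7.14%), shares above the 4.99% of all coding genes that each rest on a single gene. Of 39 Hox genes, 37 had H3K27me3 only. All 41 developmental transcription factors had H3K27me3, against 26.4% of all coding genes, and only Irx5 both marks, in an H3K18la peak of 321 bp. Hoxb4 was the single Hox gene with H3K18la alone. Gata3, a T-cell factor, had an H3K18la peak of 1200 bp inside an H3K27me3 domain of 42469 bp, one of the strongest of its list (99.8th percentile). Cdh5, the cadherin of endothelium, had a weak pair with maxima of 32 and 27. Muscle and fibro-adipogenic genes had both marks at 0 of 15 and 0 of 10 promoters, where 4.99% of so short a list is under 1 gene. They had H3K27me3 at 8 and 7 (53.3% and 70.0%, against 26.4%), Myod1 and Pdgfra among them. None of 9 housekeeping and 4 sort genes had H3K27me3, against the same 26.4%.

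Imprinted genes, of which 1 parental allele is silent, had both marks at Igf2r and at the noncoding Airn, which share 1 H3K27me3 peak of 43922 bp. The H3K18la peak at an annotated Igf2r start measured 11755 bp and shared 3804 bp with it, and the H3K18la peak over the Airn start measured 926 bp and lay inside it. Grb10 and Gnas had each mark at a different start site. Of the 22 protein-coding imprinted genes, 16 had H3K27me3 (72.7%, against 26.4% of all coding genes) and 5 H3K18la (22.7%, against 37.8%), and the 1 with both marks (4.55%) was near the 4.99% of all coding genes. Of the noncoding ones, H19 and Meg3 had H3K27me3 only and Kcnq1ot1 H3K18la only.

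**Figure D4:**
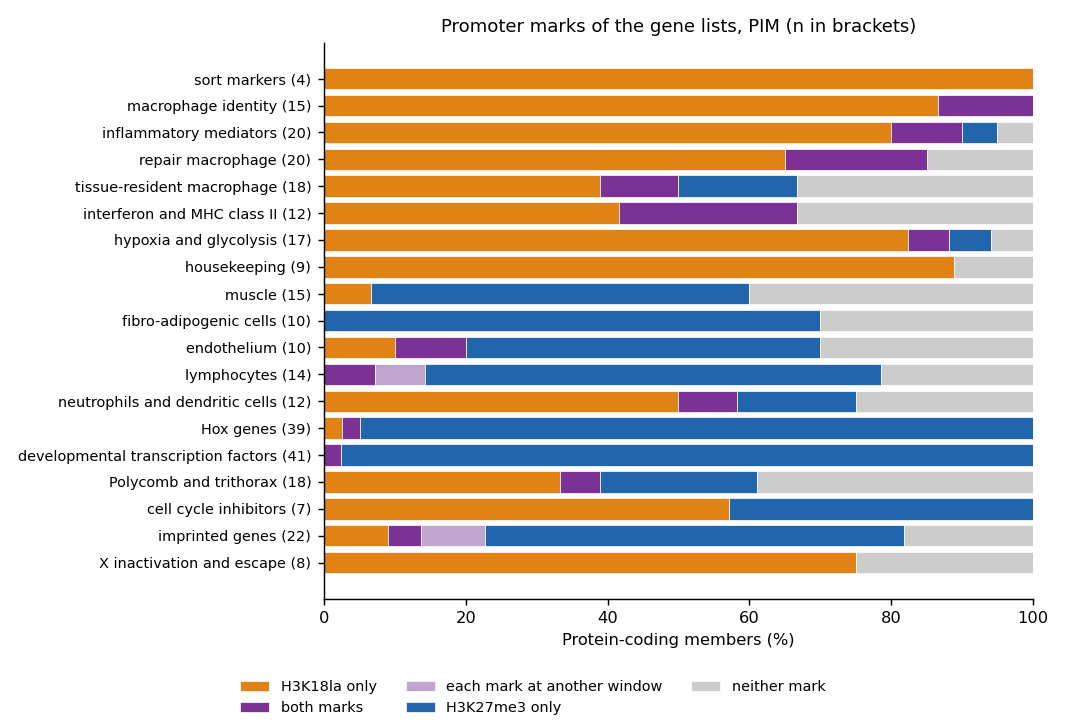
Share of the protein-coding members of each of 19 gene lists (y axis, number of members in brackets) whose promoter holds H3K18la only, both marks, each mark at another start site, H3K27me3 only or neither mark in PIM (x axis, percent). Macrophage identity, inflammatory and repair lists are mostly H3K18la only, with both marks at 2 of 20 inflammatory and 4 of 20 repair genes, while Hox genes and developmental transcription factors are almost wholly H3K27me3 only.

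The same regions were then looked up in BMDM, the other macrophage of the series. Of the 1919 PIM regions with both marks, 744 held H3K18la in BMDM (38.8%; 36.6 to 41.0) and 837 held H3K27me3 (43.6%; 41.4 to 45.8). H3K18la alone was in 461 of them, H3K27me3 alone in 554, both in 283 (14.7%; 13.2 to 16.4) and neither in 621 (32.4%). For comparison, BMDM H3K27me3 was in 139 of 29606 PIM H3K18la-only regions (0.469%) and BMDM H3K18la in 118 of 13832 H3K27me3-only regions (0.853%). The regions with both marks in PIM were thus spread over all 4 states in BMDM, while PIM regions with a single mark hardly ever held the other mark in BMDM. BMDM H3K18la was in 42.1% of H3K18la-only regions, and BMDM H3K27me3 in 57.8% of H3K27me3-only regions. BMDM had neither mark in 57.6% and 41.8% of these. Regions with both marks were wider (median 6450 bp against 1617 and 4169.5 bp), which gives them more room for a BMDM peak. The BMDM H3K18la list covered only 22.6 Mb, against 68.9 Mb in PIM, which lowers every BMDM share of that mark. At the 22 list genes, BMDM had both marks at 7, H3K18la only at 6 (Mertk, Cxcl1, Igf1, Thbs1, Id3 and Cdh5), H3K27me3 only at 4 (Ciita, Gata3 and Irx5 among them) and neither at 5.

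**Figure D5:**
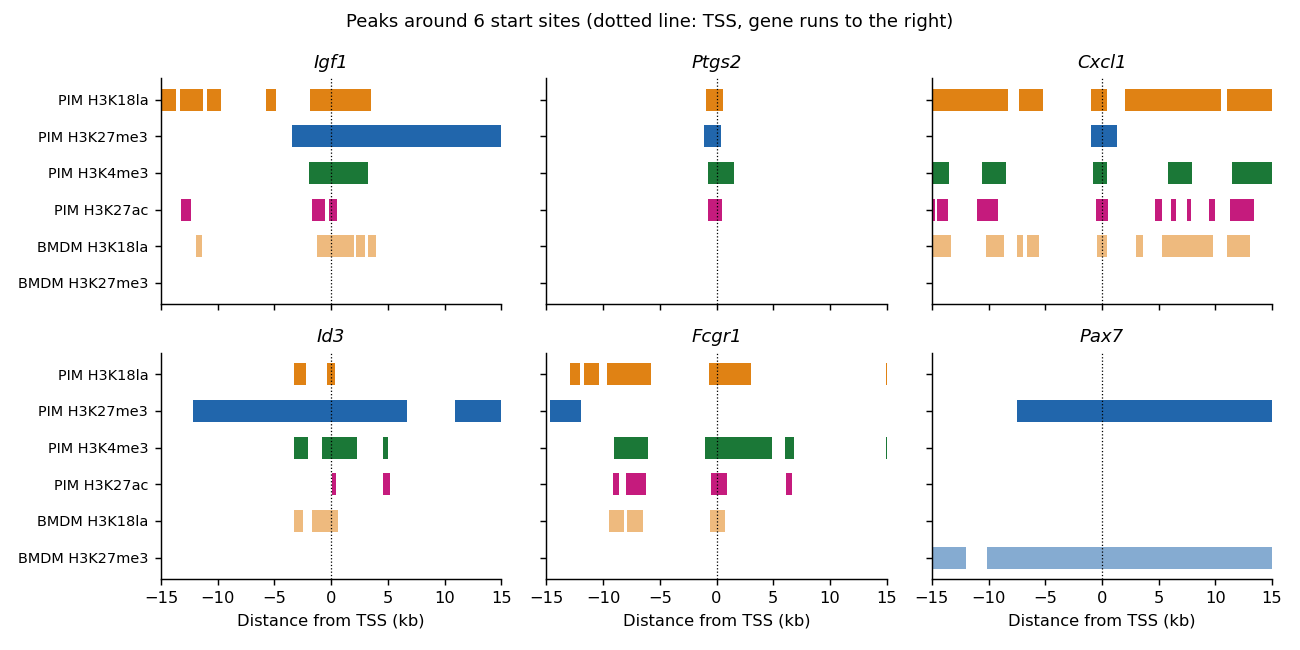
Extent of the peaks (bars) of 4 marks in PIM and 2 marks in BMDM around the start sites of Igf1, Ptgs2, Cxcl1 and Id3 (both marks), Fcgr1 (H3K18la only) and Pax7 (H3K27me3 only), by distance from the TSS along the gene (x axis, kb). The H3K18la peaks at the starts of Igf1, Cxcl1 and Id3 lie within PIM H3K27me3 peaks of 18584, 2353 and 18838 bp, and BMDM has H3K18la but no H3K27me3 peak at these 3 starts.

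Gastrocnemius muscle (GAS) and serum-grown embryonic stem cells (mESC-ser) were looked up in the same way. H3K27me3 of mESC-ser was at 616 of the 1085 PIM promoters with both marks (56.8%; 53.8 to 59.7), 14.3% of H3K18la-only promoters (13.5 to 15.2) and 69.3% of H3K27me3-only promoters (67.9 to 70.6). H3K27me3 of GAS was at 403 (37.1%; 34.3 to 40.1), 7.998% and 63.9%. Promoters with both marks were therefore between the single-mark classes in this respect. They were nearer to H3K27me3-only ones in mESC-ser and about midway in GAS. Of the 22 list genes, 21 (all but Mertk) had H3K27me3 in mESC-ser, well above the 56.8% of the 1085 genes, and 10 had it in GAS. The list genes thus do not stand for the whole class in mESC-ser.

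PIM stood second of 7 cell types in the overlap of the 2 marks by most measures. The share of H3K18la peaks that met H3K27me3 was 13.8% in mESC-ser, 7.67% in PIM, 5.09% in mESC-2i, 4.610% in GAS, 2.74% in myotubes (MT), 1.28% in BMDM and 0.280% in myoblasts (MB). By the share of H3K27me3 peaks, PIM was first (12.4%), with mESC-ser next (10.99%). Only mESC-ser (1.42) and PIM (0.59) had a log2 fold enrichment above 0, and the other 5 cell types lay between -1.07 (GAS) and -4.32 (MB). BMDM, at -1.79, thus had fewer shared bases than random placement, unlike PIM. The nested position of H3K18la was found in 58.9% of pairs in PIM and 65.6% in BMDM, and in 15.8% to 34.0% of pairs in the other 5. A narrow peak is more easily nested in a wide one. Median widths of H3K18la and H3K27me3 peaks were 1615 and 4275 bp in PIM and 916 and 5230.5 bp in BMDM. In the other 5 cell types the H3K18la medians ran from 2331 (GAS) to 4595 bp (mESC-2i). What part the widths had in the nesting was not tested. Each cell type had 1 list per mark, from 1 sample in BMDM and MB and 2 in the others, so these are values without a test. The lists also differed in covered length (22.6 to 136.8 Mb for H3K18la, 54.8 to 172.9 Mb for H3K27me3). Sequencing depth was not analysed here.

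On chromosome X, where 1 copy is silenced in the cells of a female, the marks met less often. Regions with both marks made up 1.93% of the X regions (14 of 726; 1.15 to 3.21) and 4.27% of the autosomal ones (1905 of 44631; 4.08 to 4.46), a difference of -2.34 points (-3.14 to -1.04). The autosomes ranged from 2.85% on chromosome 15 to 5.23% on chromosome 3, so X was below each of them. Both marks were also sparse on X, with 483 H3K18la-only and 229 H3K27me3-only regions on 171031299 bp. The autosomes held 29123 and 13603 on 2462745373 bp. Sparse peaks have fewer chances to meet, and how far this accounts for the difference was not tested. Among the 5000 strongest peaks of each list the difference was 0.25 points, with an interval from -0.995 to 4.50.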

How the data were processed

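The authors trimmed paired CUT&Tag reads with Trim Galore 0.6.6, aligned them to mm10 with Bowtie2 2.4.4, combined the fragment coverage of biological replicates, where there were any, with bedtools 2.30 and called peaks with SEACR 1.3 in its stringent mode, with no control track and the top 1% of regions kept. The deposited signal columns of each list hold the coverage summed over the peak and its maximum, in whole numbers that were not scaled for depth. A blacklist is mentioned only for steps after the lists. Each list is a single set, with replicates pooled where a group had 2 samples, so no test was run, no spread between replicates can be given and sequencing depth per sample was not analysed here. Intervals (95%; Wilson for shares, Newcombe for differences, order statistics for medians) reflect counting error alone.

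Chromosomes 1 to 19 and X were kept, which left out 21 of 32087 H3K18la and 2 of 15800 H3K27me3 peaks. Start sites came from GENCODE annotation of the same build. CpG islands were stretches of at least 200 bp with 50% GC and a CpG ratio of 0.6 (16218 islands). A percentile is a peak's rank by total signal within its list. Alternatives were a deeper overlap (200 bp, or 50% of the narrower peak), the 5000 strongest peaks per list, autosomes only, peaks not found in every list, a 1000-bp promoter window, coding start sites and counting bases. Genes and stretches were named by rule: the 10 longest shared stretches (chromosome 18 aside), the 10 genes whose weaker peak ranked highest, list members with both marks (some genes are not reported here), and the 5 widest regions of each single mark. The regions and gene lists were chosen with earlier results of these data known. Of 2 Ensembl entries named Aldoa the older was used. Calculations used Python 3.11.15, numpy 2.4.6, pandas 2.3.3 and numba 0.67.0, and figures matplotlib 3.10.9. Overlap counts were checked with bedtools 2.31.1, on simulated and on deposited peaks.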

Additional observations from a re-analysis of the deposited data

How the results depend on the processing

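Of 58 alternative values of 11 results, 41 stayed near the value given (a count within 1.5 times, the enrichment within 1.1 times, a share, difference or median within its 95% interval), 15 moved and 2 reversed. Most of the movement came from keeping the 5000 strongest peaks of each list. That left 141 regions and 76 genes with both marks, overlap of 3.14% of H3K18la and 2.98% of H3K27me3 peaks, nesting in either direction in 49.7% of pairs (64.1% with all peaks), a median of 3339 shared bp, H3K4me3 in 95.04% of the regions and a log2 enrichment of 0.068. The promoter difference then rose to 30.3 points from H3K18la-only regions and reversed to -6.59 points from H3K27me3-only regions, and the X difference reversed to 0.25 points. Fewer and wider peaks enter that setting by construction, and the cause of the reversals was not tested. Requiring 50% of the narrower peak gave 6.80% and 11.2% of the peaks and, applied to peak and window, 718 genes. Counting bases gave promoter differences of 4.83 and 6.40 points from H3K18la-only and H3K27me3-only, and coding start sites gave 15.2 points from H3K18la-only. Requiring the 2 peaks of a gene to touch, an alternative added after seeing the data, gave 780 genes, and a 1000-bp window 830. No paired analysis was possible because the PIM lists of both marks pool their 2 samples and carry no replicate number, and for the same reason no replicate could be left out.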

Other observations

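Of 18 Polycomb and trithorax genes, which write, read, erase or oppose the H3K27me3 mark, 7 had promoter H3K18la (38.9%) and 5 H3K27me3 (27.8%) in PIM, near the 37.8% and 26.4% of all coding genes. The Polycomb readers Cbx2, Cbx7 and Cbx8 and the PRC1 subunit Bmi1 had H3K27me3 only. Eed, a core subunit of PRC2, and Kdm6b and Kdm6a, which remove the mark, had H3K18la only, and Ezh2 and Suz12, also core subunits of PRC2, had neither mark. H3K4me3 was present at 17 of the 18, where the share over all coding genes was 59.4%.

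Of 7 inhibitors of the cell cycle 0 had both marks, where the share over all coding genes was 4.99%. Cdkn1a, Cdkn1b, Cdkn2c and Cdkn2d had H3K18la only, whereas Cdkn1c and the neighbours Cdkn2a and Cdkn2b had H3K27me3 only. Cdkn2a and Cdkn2b lay under the same H3K27me3 peak of 50907 bp, at the 99.8th percentile of its list. All 7 promoters also had H3K4me3, against 59.4% of all coding genes.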
